A study of Mus musculus with 15 samples.

Results

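The Reelin route was followed through 7 genes in developing mouse Purkinje cells (PCs): the ligand Reln, the receptors Vldlr and Lrp8, the intracellular adaptor Dab1, the kinase Fyn and the adaptors Crk and Crkl. They were chosen by symbol, through GENCODE M21 names, from the 38561 Ensembl gene IDs in the count files, and all 7 were found and passed the filter on low counts. RNA was sequenced from PCs that had been cut out of cerebellar sections with a laser, at 5 ages: postnatal day 0 (P0), P4, P8, P14 and P21. Each age had 3 biological replicates, which gives 15 libraries. The labels name no treatment and no engineered allele and give the strain as C56/BL6, while the study's methods name male C57/BL6 mice. Libraries from P4 onward were each made from 1000 singly cut PC soma, and P0 libraries from groups of neighbouring PCs, so age and manner of capture cannot be told apart for any comparison that involves P0.

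Reelin is a large secreted glycoprotein that guides the placement of neurons and, later, the growth of dendrites. In the cerebellum it is made mainly by granule cells and their precursors and by neurons of the nuclei, while PCs carry its receptors Vldlr and Lrp8 (also called ApoER2). Receptor binding leads Src family kinases such as Fyn to phosphorylate Dab1 on tyrosines, after which Dab1 recruits Crk and Crkl and activates PI3 kinase before it is degraded. In mice, loss of Reelin, of Dab1 or of both receptors leaves PCs stranded deep in the cerebellum.

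The short stretches through which these proteins meet are shown because they tie the receptors to the adaptor and the adaptor to Crk and Crkl. For the receptors, the codons of the NPxY motif to which Dab1 docks are in capitals, within 60 coding bases of exon 18 on the plus strand of GRCm38 (GENCODE M21 transcripts). The Vldlr stretch lies at chr19:27247916-27247975 and the Lrp8 stretch at chr4:107869037-107869096.
Vldlr: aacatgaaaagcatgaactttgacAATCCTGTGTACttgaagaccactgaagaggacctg
Lrp8: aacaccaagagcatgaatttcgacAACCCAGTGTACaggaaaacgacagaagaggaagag
The receptors shared 45 of these 60 bases (75.0%) and 10 of the 12 motif bases. In Dab1, capitals mark the codons of 2 tyrosine motifs (YxVP) known as docking sites for Crk family adaptors, which begin 36 bases apart at coding bases 658 and 694. The 60 bases join 12 from exon 8 (chr4:104681652-104681663) to 48 from exon 9 (chr4:104688383-104688430), also on the plus strand.
Dab1: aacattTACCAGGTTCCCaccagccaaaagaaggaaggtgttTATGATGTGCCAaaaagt
Only annotated transcripts with a coding sequence that starts with ATG and stays in frame were searched. The receptor motif codons were present in 3 of 4 of these for Vldlr and in 5 of 5 for Lrp8. A YxVP motif was present in 2 of 4 for Dab1, and presence of the pair was not counted. The values that follow are sums over all transcripts of a gene and do not separate these forms.

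Total counts on genes ranged from 3409371 to 7814951 per library (median 5345170). Values are given as CPM, counts scaled by TMM to a common library size, and, where genes are compared with each other, as RPKM, which also divides by exon length in kilobases. That length is of all annotated exons of a gene merged, whichever transcripts are expressed. Levels of different genes, and their order, depend on this choice, while fold changes of a gene with age do not. The captured material carried PC markers at every time point, and the summed level of 6 of them (Calb1, Itpr1, Pcp2, Pcp4, Car8 and Ppp1r17) went from 5340 ± 737 CPM (SD, n = 3) at P0 to 42940 ± 5287 CPM at P21. The sums of 5 interneuron and Golgi cell, 3 vascular and 4 microglial markers were at most 121 CPM in any library. Markers of other neighbours were higher: the sum of 8 Bergmann glia and astrocyte markers was 4765 ± 815 CPM at P0 and 9202 ± 870 CPM at P8 (SD, n = 3), and in a single library the granule neuron markers reached 1275 CPM and the oligodendrocyte markers 845 CPM. In pooled cells, fewer cells that express a gene and less RNA per cell cannot be told apart.

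Across the 5 time points the ligand fell and the receptor Lrp8 rose, and the mean of Dab1 was highest at P0 and lowest at P8. Vldlr had high means at both P4 (390 CPM) and P21 (371 CPM), and the libraries of these ages overlapped. For Fyn, Crk and Crkl, edgeR called neither a trend nor a pattern. Tested against postnatal day as a number (edgeR quasi-likelihood test, Benjamini-Hochberg adjustment over 14293 genes), 1 member rose and 1 fell, where 12.1% of all genes tested rose and 14.1% fell. Tested for any pattern over the time points, 4 of 7 members were called (Reln, Vldlr, Lrp8 and Dab1), against 19.3% of all genes tested. With 1 library left out in turn, 2 to 4 members were called. The members were chosen with earlier results of these data known, so these counts are no test of the list. The median slope of the 7 members was -0.0073 log2 units per day, beside -0.0077 for all genes tested.

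**Figure D1:**
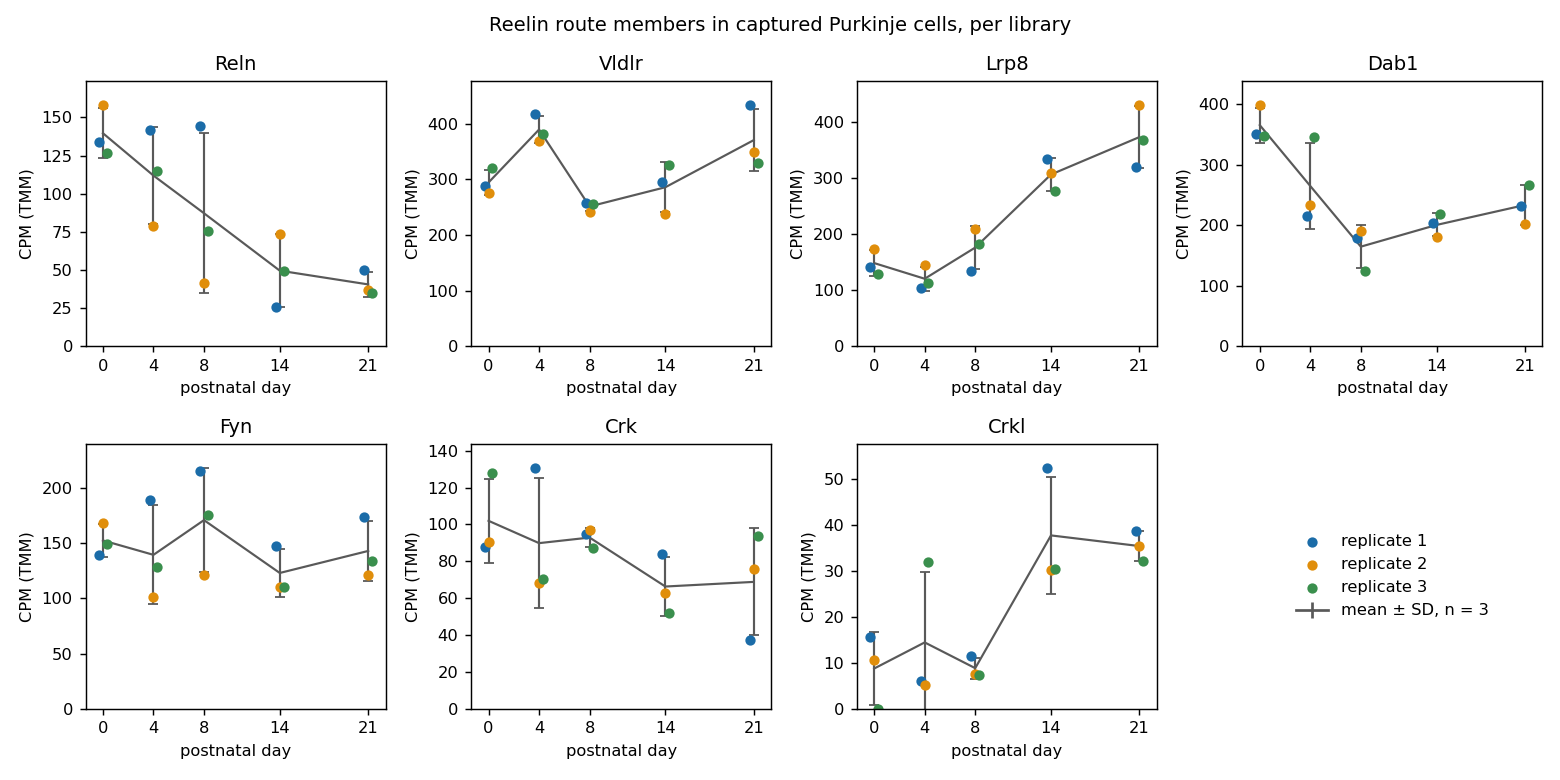
CPM (TMM) of each member in each library (points, coloured by replicate number) against postnatal day, with the mean and SD of 3 libraries per time point. The Reln points of P14 and P21 lie between 25.6 and 73.55 CPM, below all P0 and P4 points, and the Lrp8 points of P14 and P21 lie above all P0 and P4 points.

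Reln (ENSMUSG00000042453, chr5:21884454-22344702, minus strand) encodes the ligand. Its level was 134, 158 and 127 CPM in replicates 1 to 3 at P0, 142, 78.5 and 115 CPM at P4, and 144.5, 41.4 and 75.6 CPM at P8. It was 25.6, 73.55 and 49.3 CPM at P14 and 49.7, 37.1 and 34.6 CPM at P21. Every P14 and P21 library was below every P0 and P4 library, which held for 7.14% of the genes tested, while the P8 libraries spread over almost the whole range.

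Reln fell by 0.090 log2 units per day (SE 0.017, edgeR adjusted p = 0.000699). From P0 to P21 the fitted level fell to 0.289-fold (log2 change -1.79, SE 0.43, edgeR adjusted p = 0.00637). That call was made in all 15 fits that left out 1 library in turn, and the slope without P0 was -0.088 per day (adjusted p = 0.0139). The call in any pattern (adjusted p = 0.0213) was lost without P21 replicate 2 and without P21 replicate 3. An antisense gene, Gm10475, shares 246 exonic bases with Reln and held 4 counts over all libraries, beside 6650 for Reln.

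Granule cells lie next to PCs and make Reelin, and their markers were present in the captured material. The summed level of 3 granule progenitor markers (Atoh1, Barhl1 and Mki67) was 125 ± 37.7 CPM at P0 and 1.35 ± 1.55 CPM at P21 (SD, n = 3), ranging from 82.9 to 156 CPM and from 0 to 3.04 CPM. Atoh1, the defining gene of these progenitors, had no count in any library, and Barhl1 did not pass the test (edgeR adjusted p = 0.728). At P0 nearly all of the sum was Mki67 (mean 123 CPM), a gene of dividing cells in general. At P21 Mki67 had a mean of 0.218 CPM and Barhl1 of 1.13 CPM. Mki67 fell by 0.478 log2 units per day (edgeR adjusted p = 2.62e-07).

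The sum of 6 granule neuron markers ranged from 369 to 503 CPM at P0, from 356 to 595 CPM at P4 and from 563.5 to 924 CPM at P8. At P14 it ranged from 494 to 1275 CPM and at P21 from 329 to 655 CPM. Within time points, the libraries ranked alike by Reln and by this sum at P4, P8 and P14, but not at P0 or P21. By the progenitor sum they ranked like Reln at P0 and P14 only. These orders of 3 libraries were not tested. Of the 6 granule neuron markers, 3 rose (Gabra6, Cbln3 and Etv1), 1 fell (Pax6) and 2 did not pass the test. The sum of 3 markers of nuclear neurons (Tbr1, Slc17a6 and Meis2) was 20.6 ± 14.2 CPM at P0, 36.5 ± 17.8 CPM at P8 and 0.444 ± 0.596 CPM at P21, almost all of it Slc17a6, with Tbr1 and Meis2 at 0 in all P0 and P21 libraries. The part of these cells in the Reln values was not tested.

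**Figure D2:**
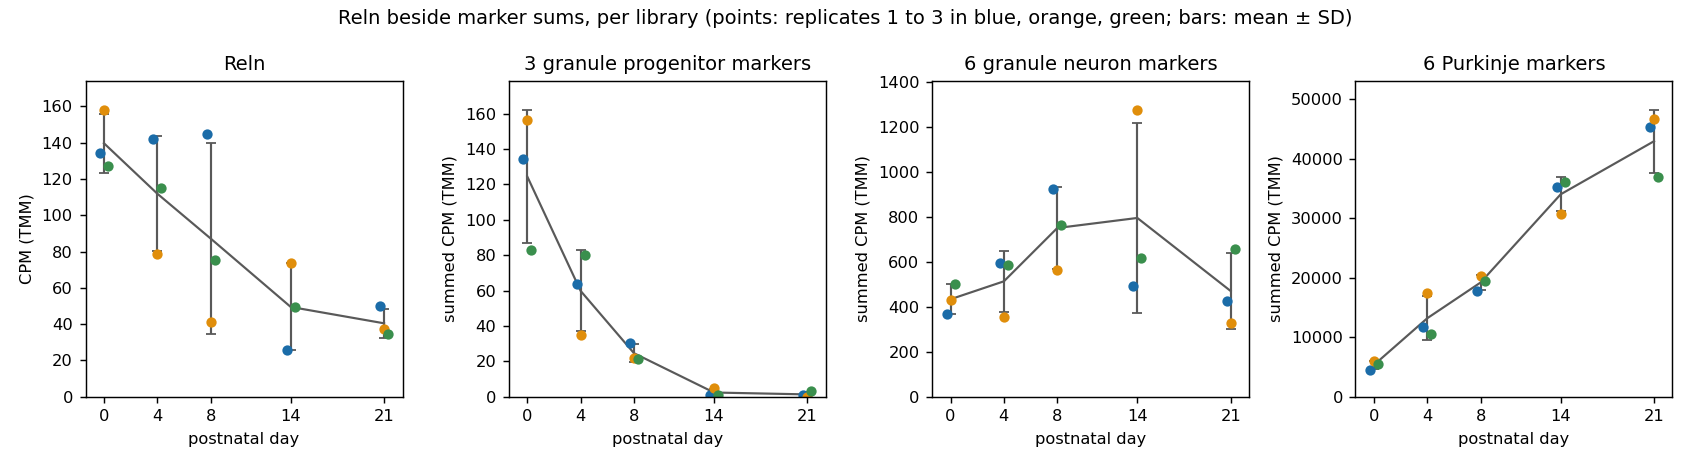
Reln (CPM) and the summed CPM of 3 granule progenitor, 6 granule neuron and 6 PC markers in each library against postnatal day, with mean and SD of 3 libraries. Reln and the progenitor sum are both lower at P14 and P21 than at P0, the granule neuron sum has its highest mean at P14, and the PC sum is higher at each later time point.

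Lrp8 (ENSMUSG00000028613, chr4:107802261-107876840, plus strand) encodes the receptor ApoER2. Its level was 141, 174 and 129 CPM at P0, 103, 144 and 113 CPM at P4, and 134.5, 209.5 and 183 CPM at P8. It was 333, 309 and 276 CPM at P14 and 320.1, 429.5 and 368 CPM at P21. All P14 and P21 libraries lay above all libraries of P0, P4 and P8. Of the genes tested, 8.24% had every P14 and P21 library above every P0 and P4 library. The share for the narrower split that includes P8 was not counted.

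The slope was 0.077 log2 units per day (SE 0.011, edgeR adjusted p = 3.49e-05). The level at P21 was 2.52-fold that at P0 (log2 change 1.33, SE 0.21, adjusted p = 0.000228) and 2.12-fold that at P8 (log2 change 1.09, SE 0.21, adjusted p = 0.00367). Both calls and the slope passed in all 15 fits with 1 library left out, and without P0 the slope was 0.10 per day (adjusted p = 6.38e-05). The step from P8 to P14 (log2 change 0.80, SE 0.21) had an edgeR adjusted p of 0.0543 and lay close to the threshold. Over the same libraries all 6 PC markers rose, as did 5 of 5 oligodendrocyte markers, whose sum went from 22.4 ± 11.8 CPM at P0 to 569 ± 241 CPM at P21 (SD, n = 3). Their part in the Lrp8 values was not tested.

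Vldlr (ENSMUSG00000024924, chr19:27216484-27254231, plus strand) encodes the other receptor. Its level was 288, 275 and 320.2 CPM at P0, 417.5, 369.5 and 382 CPM at P4, and 257, 242 and 255 CPM at P8. It was 295, 237 and 325 CPM at P14 and 434, 349.5 and 329 CPM at P21. The P4 libraries did not overlap with those of P0 or P8 but did with those of P21. The P21 libraries lay above all libraries of P0, P8 and P14. For these splits, and for those of Dab1, Adamts3 and Pafah1b3 below, the share of all genes tested was not counted.

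No direction over time was detected for Vldlr: the slope was 0.0060 log2 units per day (SE 0.010, edgeR adjusted p = 0.717), and it turned to -0.011 when total counts replaced TMM scaling. The call in any pattern (adjusted p = 0.0423) was made in 3 of the 15 fits with 1 library left out and was lost in 12, so it sits at the threshold. From P4 to P8 the fitted log2 change was -0.63 (SE 0.17, edgeR adjusted p = 0.0888), and from P8 to P21 it was 0.56 (SE 0.17, adjusted p = 0.0503). DESeq2, which called 13.2% of all genes over that span, and edgeR with RLE scaling, which called 1197 of 14293, did call the latter.

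The balance of the receptors was compared within libraries, where scaling drops out. The ratio is made of the same values as the slopes above and is no independent support for them. Per exon length, Vldlr exceeded Lrp8 2.12 ± 0.467 times at P0 (SD, n = 3), 3.48 ± 0.774 times at P4 and 1.55 ± 0.404 times at P8. The ratio was 0.987 ± 0.221 at P14 and 1.07 ± 0.305 at P21, close to 1 by this measure. The size of the ratio depends on the exon length taken for each gene, and its relative change with age does not. Every P0 and P4 library had a ratio above those of all P14 and P21 libraries, with the lowest early value at 1.65 and the highest late value at 1.41.

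The log2 ratio of Vldlr to Lrp8 fell with day over the 15 libraries (Pearson r = -0.738, permutation p = 0.00199, adjusted p = 0.00742 over the 4 pairs of genes compared). Spearman's rho was -0.764 (permutation p = 0.00127, adjusted p = 0.00508), and r was -0.749 without P21 replicates 1 and 2 (the 3 P21 libraries tie as farthest from the median day, and the first 2 by number were left out). All of these permutation tests were two-sided with 100000 permutations. Libraries of 1 time point share their day and lie in 5 groups.

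**Figure D3:**
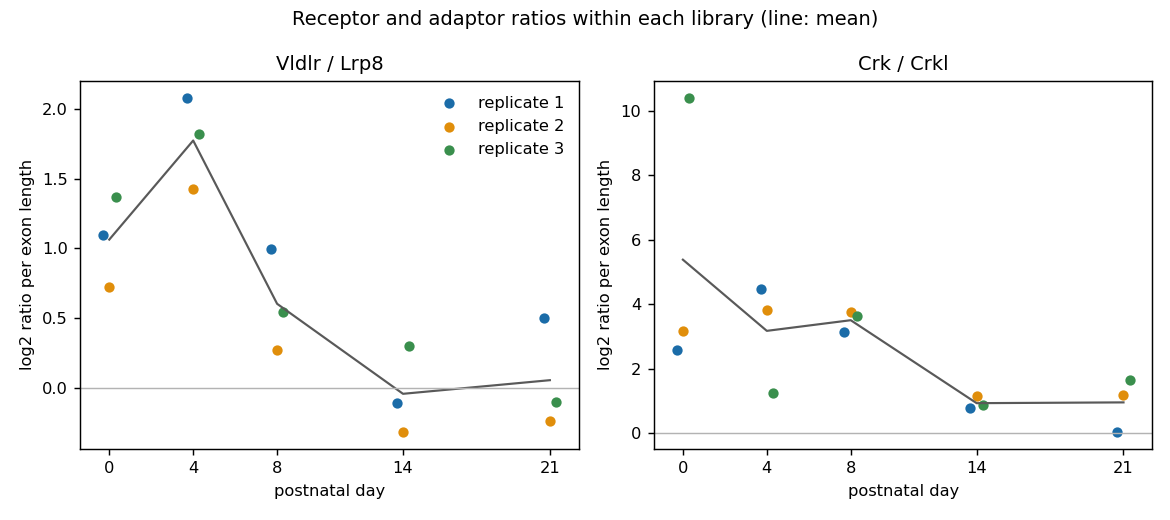
Log2 ratio per exon length of Vldlr to Lrp8 (left) and of Crk to Crkl (right) in each library against postnatal day, with the line at the mean and colours for the replicate number. The receptor ratio is near 0 on the log2 scale at P14 and P21, and the point at 10.4 for Crk to Crkl at P0 comes from the library with no Crkl count and depends on the prior count of 0.5.

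Dab1 (ENSMUSG00000028519, chr4:103619359-104744844, plus strand) encodes the adaptor that is phosphorylated when Reelin binds. Its level was 351, 398 and 347 CPM at P0, 215, 233 and 346 CPM at P4, and 179, 189.8 and 124 CPM at P8. It was 203, 180.2 and 218 CPM at P14 and 231, 202 and 267 CPM at P21. The P0 libraries lay above all others, although P4 replicate 3 came within about 1 CPM of the lowest of them, and every P8 library was below every P0, P4 and P21 library.

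Dab1 was the only member called between P0 and P8 (edgeR, 7.35% of all genes tested were called and 1.74% were called lower). It fell to 0.450-fold (log2 change -1.15, SE 0.22, adjusted p = 0.00346). The spans P0 to P8, P8 to P21 and P0 to P21 were added after the data had been seen. In edgeR the steps P0 to P4 and P4 to P8 were not called for Dab1 (adjusted p = 0.325 and 0.184). The fall from P0 to P8 was called in all 15 fits with 1 library left out, and Dab1 was also called in any pattern (adjusted p = 0.00748). The slope over all days was -0.028 per day (SE 0.013, adjusted p = 0.123), and without P0 it was -0.00032 (adjusted p = 0.992), so a trend beyond the high P0 level was not detectable. From P8 to P21 the log2 change was 0.51 (SE 0.22, adjusted p = 0.185). Over the whole span from P0 to P21 Dab1 fell to 0.639-fold (adjusted p = 0.0408), but this call was lost in 8 of 15 fits with 1 library left out (each of the P0 and P14 libraries, P21 replicate 1 and P21 replicate 2) and when replicate number was added as a block. The sum of 8 Bergmann glia and astrocyte markers ranged from 4007 to 5627 CPM at P0 and from 8209 to 9825 CPM at P8. At P21 it ranged from 3147 to 4747 CPM. Much of the sum at P0 and P8 was Fabp7, with means of 2687 and 4662 CPM. At P21 Fabp7 had a mean of 186 CPM and Slc1a3 of 2511 CPM. Of the 8 markers, 3 rose with day (Slc1a3, Hopx and Slc1a2), 2 fell (Fabp7 and Aldh1l1) and the others were not called. The part of these cells in the Dab1 values was not tested.

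Fyn (ENSMUSG00000019843, chr10:39368855-39565381, plus strand), the kinase that phosphorylates Dab1, ranged from 101.4 to 216 CPM over the 15 libraries (median 139.6). The means of 3 libraries went from 153 ± 14.6 CPM (SD) at P0 and 139.5 ± 44.8 CPM at P4 to 171 ± 47.4 CPM at P8. They were 123 ± 21.4 CPM at P14 and 143 ± 27.3 CPM at P21, and the libraries of each time point overlapped with those of every other. The slope was -0.0073 log2 units per day (SE 0.012, adjusted p = 0.707), and no pattern was called (adjusted p = 0.701).

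Crk (ENSMUSG00000017776, chr11:75679259-75706908, plus strand) and Crkl (ENSMUSG00000006134, chr16:17451987-17487434, plus strand) encode related adaptors that bind phosphorylated Dab1 and pass the signal to Rap1. Crk ranged from 37.05 to 131 CPM (median 87.2), with means of 102 ± 22.7 CPM at P0 and 68.8 ± 29.0 CPM at P21, and its slope of -0.030 per day was not called (SE 0.014, adjusted p = 0.139). The P0 and P21 libraries overlapped, and P21 replicate 1 held the lowest value of all.

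Crkl had 0 to 285 counts per library. Its level was 15.6, 10.7 and 0 CPM at P0, 6.13, 5.18 and 32.0 CPM at P4, and 11.5, 7.63 and 7.42 CPM at P8. It was 52.5, 30.3 and 30.5 CPM at P14 and 38.7, 35.4 and 32.2 CPM at P21. The count of 0 in P0 replicate 3 allows a level of up to 0.681 CPM (3 counts of the library's total, counting error only). P4 replicate 3, with 187 counts, stood among the P14 and P21 libraries, while the other P0, P4 and P8 libraries held at most 81 counts.

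The Crkl slope of 0.11 log2 units per day had a large error (SE 0.042, edgeR adjusted p = 0.0661), and it was called without P0 replicate 3 (0.088, adjusted p = 0.0451), without P4 replicate 3 (0.13, adjusted p = 0.0333), by DESeq2 (adjusted p = 0.0285) and by limma-voom (adjusted p = 0.0106). With these tools 13.3% and 15.7% of all genes tested rose. The ratio of Crk to Crkl per exon length was 11.5 ± 2.45 at P8, 1.91 ± 0.269 at P14 and 2.13 ± 1.05 at P21 (SD, n = 3), with all P14 and P21 libraries below all P8 libraries. Over the 15 libraries its log2 value fell with day (r = -0.637, permutation p = 0.00371, adjusted p = 0.00742; rho = -0.698, permutation p = 0.00533, adjusted p = 0.0107). Without P21 replicates 1 and 2 r was -0.572 and no longer passed (adjusted p = 0.0739), while with each library left out in turn r stayed between -0.694 and -0.589 (highest adjusted p = 0.0352).

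Fyn was also set against the related kinases Src and Yes1, which can act on Dab1 too. The log2 ratio of Fyn to Src gave r = -0.332 with day (permutation p = 0.226, adjusted p = 0.226; rho = -0.393, permutation p = 0.155). The ratio of Fyn to Yes1 gave r = 0.501 (permutation p = 0.0562, adjusted p = 0.0750) and rho = 0.655 (permutation p = 0.0103, adjusted p = 0.0138), so it passed by rank and not by Pearson's r. Yes1 was low, with 3 to 313 counts per library.

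Per exon length the order of the members changed with age. At P0 it ran from Dab1 (46.2 ± 3.63 RPKM) through Fyn (35.0 ± 3.36), Vldlr (29.3 ± 2.31), Crk (21.6 ± 4.80), Lrp8 (14.1 ± 2.20) and Reln (5.89 ± 0.690) to Crkl (1.74 ± 1.58), and no neighbours in this order overlapped. At P21 Vldlr (36.8 ± 5.51 RPKM), Lrp8 (35.4 ± 5.22), Fyn (32.8 ± 6.25) and Dab1 (29.5 ± 4.14) each overlapped with the next. They were followed without overlap by Crk (14.6 ± 6.13), Crkl (7.03 ± 0.648) and Reln (1.71 ± 0.342). The receptors and their adaptor were thus spread over a wide range at P0 and within each other's spread at P21, while the ligand passed from above Crkl to below it.

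**Figure D4:**
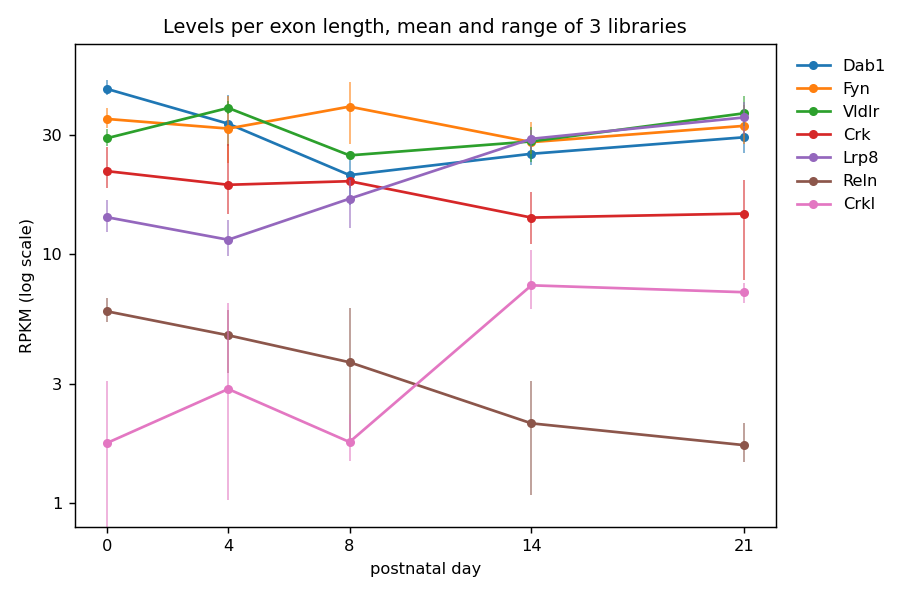
Mean RPKM of each member (log scale, line at the mean, bars from the lowest to the highest of 3 libraries) against postnatal day; the Crkl bar at P0 reaches 0 and runs off the axis. Lrp8 joins Vldlr, Fyn and Dab1 at P14 and P21, and Reln drops to the bottom of the order.

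Between neighbouring time points edgeR called 0 of 7 members at each step, against 1.97% of all genes tested from P0 to P4, 1.13% from P4 to P8, 2.67% from P8 to P14 and 0.329% from P14 to P21. At an unadjusted p under 0.05 there were 2 members from P0 to P4 (Vldlr with a log2 change of 0.40 and Dab1 with -0.46), 3 from P4 to P8 (Vldlr, Dab1 with -0.69, and Lrp8 with 0.55), 1 from P8 to P14 (Lrp8) and 1 from P14 to P21 (Vldlr with 0.37). The corresponding shares of all genes were 14.9%, 11.8%, 13.4% and 7.02%. DESeq2 and limma-voom each called 1 member from P4 to P8 (Vldlr, lower) and 1 from P8 to P14 (Lrp8, higher), and 0 at the other steps. For DESeq2 the shares of all genes called were 5.49%, 3.47%, 5.90% and 1.21% in the order of the steps, and for limma-voom they were 1.98%, 2.17%, 4.20% and 0.371%. Spans of several time points were tested after the data had been seen: between P8 and P21 edgeR called 1 member (Lrp8) against 8.25% of all genes, and between P0 and P21 it called 3 (Lrp8, Reln and Dab1) against 22.8%.

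The other genes of the route, 28 in lists by role, all passed the filter on low counts. With day, 3 rose, 6 fell and 19 were not called, and 5 were called in any pattern, where 12.1% of all genes tested rose, 14.1% fell and 19.3% were called in any pattern. Their median slope was -0.0074 log2 units per day, close to that of all genes tested. The count that fell or rose was 5 without P0, 5 without P21 replicate 1 and 5 without P21 replicate 2, in place of 9.

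Around the ligand and receptors, Adamts3, a protease that cleaves and inactivates Reelin, was at 42.7 ± 26.5 CPM at P0 and 245 ± 20.1 CPM at P4, then at 122 ± 44.9, 162 ± 50.9 and 157 ± 51.8 CPM at P8, P14 and P21 (SD, n = 3). All P4 libraries (231 CPM or more) were above all libraries of the other time points. It rose 5.75-fold from P0 to P4 (log2 change 2.52, SE 0.41, edgeR adjusted p = 0.00437) and was called in any pattern (adjusted p = 0.00409) but not by the trend (adjusted p = 0.551). The related protease Adamts2 had at most 78 counts and no call. Of the integrin subunits reported to bind Reelin, Itga3 rose by 0.078 log2 units per day (SE 0.019, adjusted p = 0.00527), from 48.3 ± 3.43 CPM at P0 to 103 ± 13.5 CPM at P21, and Itgb1 was not called (adjusted p = 0.568).

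Of the 5 genes on the Crk side, none was called by the day trend with edgeR, DESeq2 or limma-voom. With edgeR 12.1% of all genes tested rose and 14.1% fell, and DESeq2 and limma-voom called 4201 and 4045 of 14293 genes. So short a list with no call cannot be set apart from all genes. The 5 genes were the exchange factor Rapgef1, the small GTPases Rap1a and Rap1b, the adaptor Nck2 and the adhesion protein Cdh2. Their slopes ran from -0.040 to 0.029 per day. The 2 Src family kinases were not called either (Src, 0.019 per day, adjusted p = 0.539; Yes1, -0.10 per day, adjusted p = 0.0760), although Yes1 had an unadjusted p of 0.0227.

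On the PI3 kinase side 3 of 6 genes fell, where 14.1% of all genes tested fell, and the list itself was not tested. Pik3r1 and Pik3r2, regulatory subunits of the kinase, fell by 0.057 (SE 0.016, adjusted p = 0.0105) and by 0.080 log2 units per day (SE 0.025, adjusted p = 0.0245). Akt1, the kinase downstream of it, fell by 0.044 per day (SE 0.014, adjusted p = 0.0287), from 187 ± 33.7 CPM at P0 to 87.3 ± 9.82 CPM at P21. None of the 3 kept its call without P0 (adjusted p of 0.104, 0.391 and 0.590). Gsk3b, a target of Akt1, and Limk1 were not called, and Cfl1, the actin-severing cofilin, was called in any pattern (adjusted p = 0.0352), with its highest mean at P14 (2133 ± 145 CPM, n = 3).

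Cdk5, a kinase that acts in parallel to Reelin in neuronal placement, and its activators diverged. Cdk5 rose by 0.050 log2 units per day (SE 0.016, adjusted p = 0.0292) and the activator Cdk5r2 by 0.083 (SE 0.027, adjusted p = 0.0318), while the activator Cdk5r1 fell by 0.047 (SE 0.014, adjusted p = 0.0146). With total counts in place of TMM the rises of Cdk5 and Cdk5r2 were not called (adjusted p = 0.145 and 0.0892). Cdk5r1 had means of 354 ± 34.7 CPM at P0, 134 ± 19.1 CPM at P14 and 185 ± 50.7 CPM at P21, and Cdk5r2 was lower, at 8.71 ± 9.31 CPM at P0 and 29.96 ± 10.6 CPM at P21.

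The Lis1 complex, in which Pafah1b1 (Lis1) binds the catalytic subunits Pafah1b2 and Pafah1b3, showed 1 called member. Pafah1b3 had 242 ± 14.7 CPM (SD, n = 3) at P0, 207 ± 34.5 CPM at P4 and 71.0 ± 27.8 CPM at P8. It had 43.2 ± 11.0 CPM at P14 and 31.0 ± 11.0 CPM at P21, with all P8, P14 and P21 libraries below all P0 and P4 libraries. It fell by 0.15 log2 units per day (SE 0.017, adjusted p = 2.35e-06) and to 0.343-fold from P4 to P8 alone (adjusted p = 0.0219). Pafah1b1 and Pafah1b2 had slopes of 0.0037 and -0.0061 per day and no call.

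Among the 5 genes for turnover and recycling, Mylip, the ubiquitin ligase (Idol) that sends Vldlr and Lrp8 to degradation, fell by 0.12 log2 units per day (SE 0.036, adjusted p = 0.0197), from 19.9 ± 14.96 CPM at P0 to 3.07 ± 0.645 CPM at P21. Its counts were low (8 to 176 per library), and it was not called without P0 (adjusted p = 0.0918). Cul5 and Rnf7, which target phosphorylated Dab1 for degradation, the ligase Cbl and the receptor-recycling protein Snx17 were not called.

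**Figure D5:**
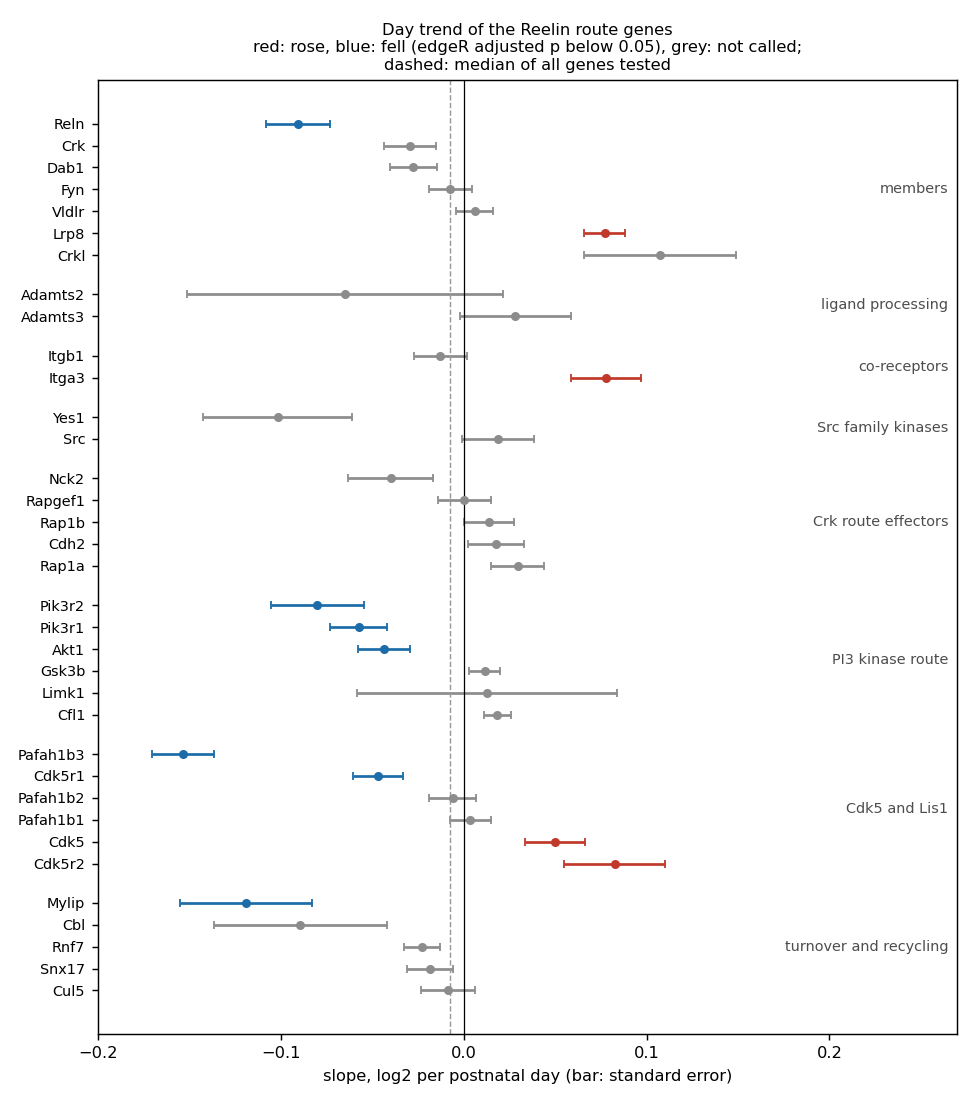
Slope of each member and of each other route gene in log2 units per postnatal day (points, bars for the standard error), grouped by role, with the dashed line at the median of all genes tested (-0.0077). Lrp8, Itga3, Cdk5 and Cdk5r2 lie to the right in red as rising, and Reln, Pik3r2, Pik3r1, Akt1, Pafah1b3, Cdk5r1 and Mylip to the left in blue as falling.

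For the members with a called pattern, the protein-coding genes with the most similar course were found by Pearson's r of log2 CPM over the 15 libraries, among 10705 genes. These values are descriptions, since all libraries of a time point share their age. Closest to Reln were Plk1 (r = 0.907), a kinase of cell division that had no count at P14, Ercc8 (0.897) and Ssbp3 (0.895). Closest to Lrp8 were Tecr (0.970), an enzyme of fatty acid elongation, Ogdh (0.969), an enzyme of the citric acid cycle, and Dynll2 (0.951), a dynein light chain. Closest to Dab1 were Ctnnbl1 (0.886), Ift46 (0.879) and Zbtb42 (0.874), and closest to Vldlr were Scrt1 (0.812), Ebag9 (0.799) and Kbtbd7 (0.783). Between Reln and Lrp8 themselves r was -0.852.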

How the data were processed

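The authors trimmed paired-end reads of amplified RNA from captured PCs (cutadapt 1.2.1), aligned them to mm10 (GRCm38.p1) with GSNAP, discarded reads with several matches and tallied the rest by gene with HTSeq 0.5.3p9. The authors deposited these tallies as raw counts, 1 file per library, with no normalization; strand and the annotation release are not given in the sources used here. HTSeq's tallies outside genes (16.71 to 29.8% no feature, 1.16 to 1.57% ambiguous) were left out.

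Of 38561 gene IDs, 36639 were in GENCODE M21 (GRCm38), which gave names, positions and exon lengths; CPM and RPKM were computed from the deposited counts with TMM library sizes. The main test was the quasi-likelihood test of edgeR 4.0.16 (R 4.3.3) on 14293 genes that passed filterByExpr by time point, with day as a number or time point as a factor fitted over all 15 libraries, called at a Benjamini-Hochberg adjusted p under 0.05. The biological coefficient of variation was 0.757. DESeq2 1.42.0 and limma-voom (limma 3.58.1), RLE scaling, total counts, no filter, log2(day + 1), a replicate block, leaving out P0 and leaving out each library were alternatives. Ratios used log2 CPM with a prior count of 0.5, and permutations were run in Python 3.11.15 (numpy 2.4.6, scipy 1.17.1, pandas 2.3.3); figures used matplotlib 3.10.9. Coding sequences were read from the M21 transcripts.

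The members and lists were chosen with earlier results of these data known, and the spans P0 to P8, P8 to P21 and P0 to P21 were added after the data had been seen. The genes named are the 7 members, the 28 listed route genes, listed markers, and for Reln, Vldlr, Lrp8 and Dab1 the 3 protein-coding genes with the most similar course and a mean of 10 CPM or more at the time point where they peak; Gm10475 was named for its overlap. The script was tested on simulated counts of 14293 genes, 200 with a slope of 0.1 log2 units per day: the day trend test recovered 92 (46%) with 8 false calls and a median slope of 0.0979. Replicates differed by a chi-square per gene of 18.4 to 56.5, so each was kept as a sample.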

Additional observations from a re-analysis of the deposited data

How the results depend on the processing

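Reln and Lrp8 were called by the day trend under all alternatives run, and the count of members called was 2 to 3 with 1 library left out but 4 with total counts, which added Dab1 (-0.045 log2 units per day) and Crk (-0.047). Total counts moved the median slope of all genes from -0.0077 to -0.025 per day and the split of rising and falling genes from 1729 and 2021 to 1230 and 2874. They also turned the slopes of Vldlr (-0.011), Rapgef1 (-0.017), Rap1b (-0.0036), Gsk3b (-0.0056), Limk1 (-0.0037) and Pafah1b1 (-0.013). Dab1 passed on log2(day + 1), at -0.19 per unit, and Crkl passed with DESeq2 (0.11) and limma-voom (0.14). The cause of these changes was not tested.

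Without P0, 5 of the other route genes were called, and the slopes of Adamts3 (-0.024) and Pafah1b1 (-0.013) turned negative. Rapgef1, near 0, turned to -0.00087 with RLE scaling, -0.00064 with no filter, -0.00088 with DESeq2, -3.4e-05 with limma-voom and -0.022 on log2(day + 1). Between P4 and P8, DESeq2 and limma-voom each called 1 member. Between P8 and P14, RLE scaling, DESeq2, limma-voom and the replicate block each called 1, Lrp8. Of all 14293 genes tested, RLE scaling called 389 at that step and the replicate block 338. Between P8 and P21, RLE scaling and DESeq2 each called 2, Vldlr and Lrp8, where RLE scaling called 1197 of all genes tested. The ratio of Crk to Crkl gave r = -0.572 without P21 replicates 1 and 2.

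With 1 library left out, the other route genes called numbered 5 to 9 (5 without P21 replicate 1 or 2), members called in any pattern 2 to 4 (2 without P21 replicate 2), and members called from P8 to P14 0 to 1 (1 without P0 replicate 2, P0 replicate 3 or P4 replicate 2). Slopes ranged from -0.0015 (without P21 replicate 1) to 0.0084 for Vldlr and from 0.088 to 0.13 for Crkl, and r from -0.538 (without P4 replicate 2) to -0.219 for Fyn to Src. The lowest or highest slope turned for Rapgef1 (-0.013 to 0.0048), Limk1 (-0.0055 to 0.067), Pafah1b1 (-0.0030 to 0.0082), Pafah1b2 (0.0029) and Cul5 (0.0026).

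Same-numbered libraries did not deviate together (mean r = -0.0030 over 30 pairs, -0.033 to 0.045), so no pairing by number was detected. This r is taken over all genes tested and cannot exclude a tie that touches few of them. The replicate block left 2 members called by the day trend, with slopes of -0.090 for Reln and 0.077 for Lrp8, but ended the call of Dab1 from P0 to P21, where it called 2. Of all 14293 genes tested, the block called 3634 by the day trend and 3087 from P0 to P21. The spread at n = 3 together with low counts limits what Crkl, Yes1, Adamts2, Limk1 and Mylip can show.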
